A study of Mus musculus with 6 samples.

Results

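The genes described here are the insulin-like growth factor (IGF) ligands Igf1 and Igf2, their receptors Igf1r and Igf2r, and the binding proteins Igfbp2, Igfbp3, Igfbp4, Igfbp5, Igfbp6 and Igfbp7, taken by symbol from the deposited expression table. All 10 were among its 21671 rows, and all 10 were among the 13934 genes tested, those with a maximum above 0.25 RPKM (read counts divided by transcript length and by the size of the library) in any library. RNA-Seq was performed on 3 groups of freshly sorted cells with 2 libraries each, and every library was the pool of the gastrocnemius muscles of 2 mice. All mice were mdxITGAM-DTR, of both sexes: they lack dystrophin, as in Duchenne muscular dystrophy, and carry the diphtheria toxin receptor under the ITGAM promoter, so that diphtheria toxin (DT) depletes monocytes and macrophages (MΦs), whereas neutrophils, which also use this promoter, are spared. Mice received injections every 4 days, starting at 10 weeks of age, of DT at 1 ng per g or of PBS, and muscles were collected on day 15. The groups were α7Sca1 cells from DT-injected mice, which carry both α7-integrin and Sca1, satellite cells (SCs, the stem cells of muscle) from DT-injected mice (DT SCs), and SCs from PBS-injected mice (CTRL SCs). The SCs were α7-integrin-positive and Sca1-negative, and all cells were sorted as lineage-negative. No α7Sca1 library from PBS-injected mice was analysed here, so for these cells the effect of DT and the identity of the cells cannot be told apart.

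Igf1 and Igf2 are secreted growth factors that act through Igf1r, a tyrosine kinase receptor that signals through phosphoinositide 3-kinase and Akt, and in muscle they promote the growth of myoblasts, their differentiation and fibre hypertrophy. Igf2r, which is also the cation-independent mannose 6-phosphate receptor, carries Igf2 to lysosomes and clears it. The binding proteins hold the ligands outside the cell and, once cleaved by proteases, release them, and in muscle repair MΦs and fibroblasts are known sources of Igf1.

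The markers of the sorted cells matched the labels in part. Ly6a, the gene of Sca1, had 344 and 248 RPKM in α7Sca1 cells, 51.8 and 55.2 RPKM in DT SCs, and 31.0 and 21.6 RPKM in CTRL SCs. Itga7, the gene of α7-integrin, had 41.8 and 48.5 RPKM in α7Sca1 cells, 78.3 and 77.6 RPKM in DT SCs, and 75.0 and 77.6 RPKM in CTRL SCs. Pax7, the defining factor of satellite cells, had 0.380 and 0.319 RPKM in α7Sca1 cells, 3.45 and 2.67 RPKM in DT SCs, and 4.87 and 5.01 RPKM in CTRL SCs. The 18 adipocyte markers summed to 14488 and 13885 RPKM in α7Sca1 cells, to 314 and 771 RPKM in DT SCs and to 141 and 118 RPKM in CTRL SCs. CTRL SCs replicate 1 stood apart, since its 20 fibro-adipogenic progenitor (FAP) and fibroblast markers summed to 4135 RPKM against 798 RPKM in replicate 2, and its 10 tenocyte markers to 2275 RPKM against 284 RPKM. Of the 4135 RPKM, the collagen gene Col1a1 alone made 2287 RPKM, against 192 RPKM in replicate 2. The 19 MΦ and monocyte markers summed to 335 and 318 RPKM in α7Sca1 cells, to 353 and 710 RPKM in DT SCs and to 1268 and 714 RPKM in CTRL SCs, and none of the 19 was at 0 in any library, including Ptprc, the gene of the CD45 antigen that the sort removes, at 0.366 to 2.80 RPKM. Cd14 alone made 194 and 197 RPKM of the α7Sca1 sums, against 42.6 and 106 RPKM in DT SCs and 110 and 74.5 RPKM in CTRL SCs. The median of the 19 was 1.32 and 1.34 RPKM in α7Sca1 cells, 3.31 and 3.56 RPKM in DT SCs, and 12.1 and 7.38 RPKM in CTRL SCs. The deposited values follow the same distribution in all libraries, with 9140 genes of at least 1 RPKM in each, so their depth is unknown.

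**Figure D1:**
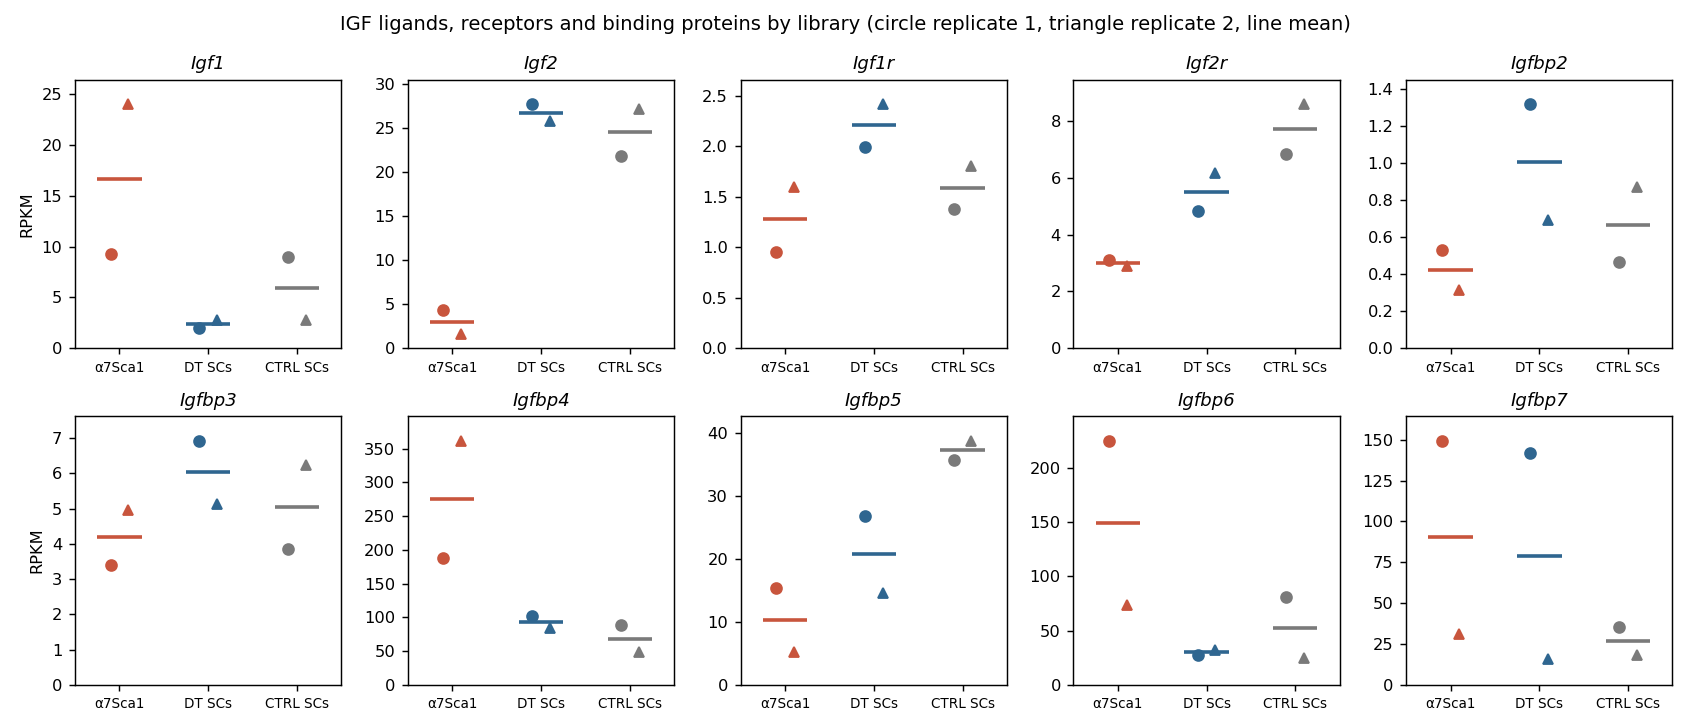
RPKM (vertical axis, from 0) of the 10 genes in α7Sca1 cells, DT SCs and CTRL SCs, with replicate 1 as a circle, replicate 2 as a triangle and the mean as a line. Igf2 sits at 4.35 RPKM or less in α7Sca1 cells and at 21.9 RPKM or more in all SC libraries, while the circles of Igfbp7 lie far above its triangles in α7Sca1 cells and in DT SCs.

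Of the ligands, Igf2 was lower in α7Sca1 cells than in both SC groups. Igf2 had 4.35 and 1.65 RPKM in α7Sca1 cells, 27.7 and 25.8 RPKM in DT SCs, and 21.9 and 27.2 RPKM in CTRL SCs. Both α7Sca1 libraries were below all 4 SC libraries, and the SC groups overlapped. The mean of Igf2 was 3.0 ± 1.91 RPKM in α7Sca1 cells and 26.8 ± 1.37 RPKM in DT SCs (SD, n = 2 each), a ratio of 8.92 to 1 in favour of DT SCs. On the log2(RPKM + 1) scale, Igf2 was lower in α7Sca1 cells by limma than in DT SCs (log2 fold change -2.88, SE 0.34, adjusted p = 0.00106) and than in CTRL SCs (-2.75, SE 0.34, adjusted p = 0.0012). Both calls were kept under all 15 alternatives of each comparison. Between DT SCs and CTRL SCs the log2 fold change was 0.13, with a 95% interval of -0.66 to 0.91 and an adjusted p of 0.974 by limma.

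Igf1 was higher in α7Sca1 cells than in DT SCs. Igf1 had 9.26 and 24.0 RPKM in α7Sca1 cells, 1.98 and 2.76 RPKM in DT SCs, and 8.98 and 2.78 RPKM in CTRL SCs. Replicate 1 of CTRL SCs lay close to the lower α7Sca1 library, whereas the other 3 SC libraries were all at 2.78 RPKM or below. Igf1 was higher in α7Sca1 cells than in DT SCs by 2.26 on the log2 scale (SE 0.53, adjusted p = 0.0182 by limma), and the difference from CTRL SCs was 1.38 (SE 0.53, adjusted p = 0.088), although in both comparisons the libraries did not overlap. The call against DT SCs was lost without α7Sca1 replicate 2 (1.62, adjusted p = 0.0952 by limma), without DT SCs replicate 1 (2.09, adjusted p = 0.135) and without DT SCs replicate 2 (2.43, adjusted p = 0.0883), and also with no filter on low values (adjusted p = 0.0602). The value against CTRL SCs was 2.08 without CTRL SCs replicate 1, 0.68 without CTRL SCs replicate 2 and 0.74 without α7Sca1 replicate 2, and it became a call without α7Sca1 replicate 1 (2.03, adjusted p = 0.0498 by limma).

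Igf1 in DT SCs against CTRL SCs had a log2 fold change of -0.88 (SE 0.53, 95% interval -2.13 to 0.38, adjusted p = 0.661 by limma). Without CTRL SCs replicate 1 the value was -0.18, and without CTRL SCs replicate 2 it was -1.58. CTRL SCs replicate 1 also had the highest FAP and fibroblast, tenocyte and MΦ marker sums of the 6. Col1a1 alone made 2287 RPKM of its FAP and fibroblast sum. The median of that list was highest in α7Sca1 replicate 1, at 50.9 RPKM against 30.3 RPKM in CTRL SCs replicate 1. The part of these markers in the Igf1 level was not tested. Fewer cells of a type and less RNA per cell cannot be told apart in such bulk libraries. Igf1 made up 68.0% and 93.6% of the summed Igf1 and Igf2 RPKM in α7Sca1 cells, 6.65% and 9.67% in DT SCs, and 29.1% and 9.28% in CTRL SCs. The summed ligand RPKM was 13.6 and 25.7 in α7Sca1 cells, 29.7 and 28.6 in DT SCs, and 30.8 and 30.01 in CTRL SCs.

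Igf1 lies on mouse chromosome 10 (mm9 chr10:87321010-87399792, plus strand) and Igf2 on chromosome 7 (chr7:149836673-149852721, minus strand), both protein coding. The 250 bases before a start site are shown for each gene that passed the test in at least 1 comparison; RPKM are per gene, so which start was used was not measured. They were taken from RefSeq (table of build GRCm38.p6), and each had exactly 1 match in the mm9 chromosome, whose positions are given. Capitals mark matches on either strand to the E-box CANNTG and to the TATA box TATAAA, where N is any base. Myogenic factors such as Myod1 read some forms of the E-box, and a match does not show that a factor binds there. RefSeq gives Igf2 4 windows, of which the one nearest to the coding part is shown, and the Igf1 window ends 218 bases from the nearest start in the mm9 annotation.
Igf1 (chr10:87323606-87323855, plus strand): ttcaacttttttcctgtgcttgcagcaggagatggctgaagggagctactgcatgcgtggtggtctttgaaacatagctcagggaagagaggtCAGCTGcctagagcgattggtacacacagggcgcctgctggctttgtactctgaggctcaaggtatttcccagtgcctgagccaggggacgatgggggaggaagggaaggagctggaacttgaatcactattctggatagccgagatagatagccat
Igf2 (chr7:149843402-149843651, minus strand): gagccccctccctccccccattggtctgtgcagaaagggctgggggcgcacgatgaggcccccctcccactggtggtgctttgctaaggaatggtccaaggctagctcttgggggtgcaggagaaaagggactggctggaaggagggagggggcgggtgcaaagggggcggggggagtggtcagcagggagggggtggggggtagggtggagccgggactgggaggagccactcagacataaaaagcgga
The Igf1 window holds a single E-box, of the form CAGCTG, which 13% of 32851 RefSeq promoter windows of this length hold. The Igf2 window shown has neither motif, whereas the most upstream of the 4 Igf2 windows holds 2 E-boxes and the others none. Of all windows, 66.22% have at least 1 CANNTG.

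Of the receptors, Igf2r was lower in α7Sca1 cells and Igf1r passed no test. Igf2r had 3.12 and 2.89 RPKM in α7Sca1 cells, 4.82 and 6.17 RPKM in DT SCs, and 6.84 and 8.59 RPKM in CTRL SCs. The 3 groups did not overlap in any pair. By limma, Igf2r was lower in α7Sca1 cells than in CTRL SCs (log2 fold change -1.11, SE 0.21, adjusted p = 0.00656) and than in DT SCs (-0.69, SE 0.21, adjusted p = 0.0406). The call against DT SCs was lost under 9 of 15 alternatives, with adjusted p from 0.0556 to 0.206 by limma, among them each library left out in turn. The call against CTRL SCs was lost without CTRL SCs replicate 2 (-0.97, adjusted p = 0.0698). In DT SCs against CTRL SCs the log2 fold change of Igf2r was -0.42 (SE 0.21, 95% interval -0.91 to 0.06, adjusted p = 0.555 by limma).

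Igf2r (chr17:12875272-12962530, minus strand) is overlapped on the opposite strand by Airn, a long non-coding RNA. Airn had 1.95 and 1.47 RPKM in α7Sca1 cells, 2.67 and 2.92 RPKM in DT SCs, and 4.76 and 4.84 RPKM in CTRL SCs, the same order of groups as Igf2r. SMART-seq2 does not keep the strand, so reads in the shared stretch cannot be told apart. The window before the Igf2r start held 4 E-boxes, and 8 of the 10 genes held at least 1 in a RefSeq window, Igf2 only in its most upstream one.
Igf2r (chr17:12962573-12962822, minus strand): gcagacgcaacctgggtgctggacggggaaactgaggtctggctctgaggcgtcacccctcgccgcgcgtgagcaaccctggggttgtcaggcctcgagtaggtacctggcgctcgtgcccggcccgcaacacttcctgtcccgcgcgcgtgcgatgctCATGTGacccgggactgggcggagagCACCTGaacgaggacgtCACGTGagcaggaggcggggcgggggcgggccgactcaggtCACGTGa

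Igf1r, the signalling receptor (chr7:75097713-75371484, plus strand), was at a low level throughout. Igf1r had 0.957 and 1.60 RPKM in α7Sca1 cells, 1.99 and 2.42 RPKM in DT SCs, and 1.38 and 1.80 RPKM in CTRL SCs. DT SCs were above both other groups without overlap, and α7Sca1 cells and CTRL SCs overlapped. The log2 fold changes were 0.31 for DT SCs against CTRL SCs (adjusted p = 0.689), -0.50 for α7Sca1 cells against DT SCs (adjusted p = 0.0993) and -0.20 for α7Sca1 cells against CTRL SCs (adjusted p = 0.489), all by limma. The ratio of Igf2r to Igf1r RPKM was 3.26 and 1.81 in α7Sca1 cells, 2.42 and 2.55 in DT SCs, and 4.95 and 4.77 in CTRL SCs. Differences in this ratio were not tested.

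Among the binding proteins, Igfbp4 had the highest mean of the 10 genes in all groups, although Igfbp6 exceeded it in α7Sca1 replicate 1 and Igfbp7 in DT SCs replicate 1. Igfbp4, which sequesters the ligands until the protease Pappa cleaves it, had 188 and 362 RPKM in α7Sca1 cells, 102 and 83.8 RPKM in DT SCs, and 88.2 and 48.1 RPKM in CTRL SCs. Both α7Sca1 libraries were above all SC libraries, and the SC groups overlapped. In α7Sca1 cells at least 99.2% of all genes of the table lay below Igfbp4, and in the lowest library, CTRL SCs replicate 2, 97.1% did. By limma Igfbp4 was higher in α7Sca1 cells than in DT SCs (log2 fold change 1.49, SE 0.41, adjusted p = 0.0307) and than in CTRL SCs (1.98, SE 0.41, adjusted p = 0.0101). Igfbp4 in DT SCs against CTRL SCs was at 0.50 (SE 0.41, adjusted p = 0.778 by limma).

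The Igfbp4 call against DT SCs was lost under 7 of 15 alternatives (adjusted p 0.0505 to 0.175 by limma). These included leaving out α7Sca1 replicate 2 (1.02), DT SCs replicate 1 (1.63), DT SCs replicate 2 (1.35) and either library of CTRL SCs (1.49 each). The call against CTRL SCs was lost without CTRL SCs replicate 2 (1.55, adjusted p = 0.0934). The direction was higher in α7Sca1 cells in all of these, but omitting a CTRL SCs library cannot move the value against DT SCs.

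Igfbp6, a binding protein with a preference for Igf2, had 225 and 73.5 RPKM in α7Sca1 cells, 27.9 and 31.8 RPKM in DT SCs, and 80.7 and 24.3 RPKM in CTRL SCs. CTRL SCs replicate 1 lay above the lower α7Sca1 library, so these groups overlapped, whereas α7Sca1 cells and DT SCs did not. Igfbp6 was higher in α7Sca1 cells than in DT SCs by 2.07 on the log2 scale (SE 0.65, adjusted p = 0.0476 by limma), and the value against CTRL SCs was 1.51 (SE 0.65, adjusted p = 0.114), or 1.51 with adjusted p = 0.0435 when the replicate number entered as a block. The call against DT SCs was lost under 8 of 15 alternatives (adjusted p 0.0532 to 0.221). It was lost without α7Sca1 replicate 1 (1.27), without either library of DT SCs (1.98 and 2.17) and without either of CTRL SCs (2.07 each). Between DT SCs and CTRL SCs the value was -0.56 (SE 0.65, adjusted p = 0.878 by limma). It turned to 0.29 without CTRL SCs replicate 1, and the cause was not tested.

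Igfbp5, which is induced as myoblasts differentiate, ran the other way. It had 15.3 and 5.18 RPKM in α7Sca1 cells, 26.8 and 14.6 RPKM in DT SCs, and 35.8 and 38.8 RPKM in CTRL SCs. CTRL SCs lay above all other libraries, while α7Sca1 cells and DT SCs overlapped. By limma Igfbp5 was lower in α7Sca1 cells than in CTRL SCs (log2 fold change -1.93, SE 0.47, adjusted p = 0.0192), with values of -1.05 against DT SCs (adjusted p = 0.132) and, for DT SCs against CTRL SCs, of -0.88 (SE 0.47, 95% interval -1.98 to 0.23, adjusted p = 0.597). The call was lost with no filter (adjusted p = 0.0578), without α7Sca1 replicate 2 (-1.23, adjusted p = 0.0595), without CTRL SCs replicate 1 (-1.99, adjusted p = 0.11) and without CTRL SCs replicate 2 (-1.87, adjusted p = 0.133). Against DT SCs a call appeared without α7Sca1 replicate 1 (-1.76, adjusted p = 0.0216).

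Igfbp7, which binds the IGFs only weakly and lies in vessel walls, varied more within α7Sca1 cells and within DT SCs than the group means differed. The means of α7Sca1 cells and DT SCs were 3.36 and 2.93 times that of CTRL SCs, whose own replicates differed less than this. It had 149 and 31.2 RPKM in α7Sca1 cells, 142 and 15.7 RPKM in DT SCs, and 35.5 and 18.2 RPKM in CTRL SCs. Replicate 1 was 4.79 times replicate 2 in α7Sca1 cells, 9.02 times in DT SCs and 1.95 times in CTRL SCs. No limma comparison passed for Igfbp7: the log2 fold changes were 0.88 for DT SCs against CTRL SCs (SE 1.05, adjusted p = 0.883), 0.51 for α7Sca1 cells against DT SCs (adjusted p = 0.743) and 1.39 for α7Sca1 cells against CTRL SCs (adjusted p = 0.343). Leaving out replicate 1 of DT SCs turned the first of these to -0.66. The gene (chr5:77778265-77837070, minus strand) is overlapped on the opposite strand by Polr2b, a subunit of RNA polymerase, which stayed between 5.99 and 8.39 RPKM in all libraries. The 12 endothelial markers summed to 118 and 120 RPKM in α7Sca1 cells, 101 and 135 RPKM in DT SCs, and 101 and 59.5 RPKM in CTRL SCs. Without Ly6c1, which is also on the FAP list, the other 11 summed to 41.7 and 22.5 RPKM in α7Sca1 cells, 71.0 and 86.8 RPKM in DT SCs, and 78.8 and 46.3 RPKM in CTRL SCs. The 13 pericyte and smooth muscle markers summed to 307 and 129 RPKM in α7Sca1 cells, 1777 and 1245 RPKM in DT SCs, and 947 and 998 RPKM in CTRL SCs. The part of these cells in the Igfbp7 level was not tested.

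Igfbp3, the main carrier of IGFs in blood, and Igfbp2 were at low levels. Igfbp3 had 3.40 and 4.96 RPKM in α7Sca1 cells, 6.93 and 5.15 RPKM in DT SCs, and 3.84 and 6.24 RPKM in CTRL SCs. Igfbp2 had 0.529 and 0.317 RPKM in α7Sca1 cells, 1.32 and 0.694 RPKM in DT SCs, and 0.464 and 0.871 RPKM in CTRL SCs. Both α7Sca1 cell libraries were below both DT SCs libraries for each gene, and the other pairs of groups overlapped. The log2 fold changes of α7Sca1 cells against DT SCs were -0.45 for Igfbp3 (adjusted p = 0.256) and -0.48 for Igfbp2 (adjusted p = 0.109) by limma. Igfbp2 and Igfbp5 are neighbours on chromosome 1, with 5457 bases between them.

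The windows before the starts of Igfbp4 (chr11:98902558-98913969, plus strand), Igfbp5 (chr1:72904506-72921458, minus strand) and Igfbp6 (chr15:101974793-101979942, plus strand) are shown because these 3 binding proteins passed a test. The Igfbp4 and Igfbp6 windows hold a TATAAA on either strand, and they are the only 2 of the 10 genes that do. Of all RefSeq windows of this length, 12.37% hold it. The 2 matches differ in place: in Igfbp4 it lies close to the end of the window. In Igfbp6 the match is on the minus strand and near the middle of the window.
Igfbp4 (chr11:98902308-98902557, plus strand): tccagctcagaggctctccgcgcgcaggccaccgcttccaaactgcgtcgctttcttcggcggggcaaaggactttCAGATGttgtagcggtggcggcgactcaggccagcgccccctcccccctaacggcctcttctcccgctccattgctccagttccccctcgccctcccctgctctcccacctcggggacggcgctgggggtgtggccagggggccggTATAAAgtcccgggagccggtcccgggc
Igfbp5 (chr1:72921440-72921689, minus strand): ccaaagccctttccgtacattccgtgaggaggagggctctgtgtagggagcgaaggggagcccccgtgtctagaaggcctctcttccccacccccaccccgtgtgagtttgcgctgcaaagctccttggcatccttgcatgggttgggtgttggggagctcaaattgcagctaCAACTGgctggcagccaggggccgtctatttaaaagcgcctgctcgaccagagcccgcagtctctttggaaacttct
Igfbp6 (chr15:101974367-101974616, plus strand): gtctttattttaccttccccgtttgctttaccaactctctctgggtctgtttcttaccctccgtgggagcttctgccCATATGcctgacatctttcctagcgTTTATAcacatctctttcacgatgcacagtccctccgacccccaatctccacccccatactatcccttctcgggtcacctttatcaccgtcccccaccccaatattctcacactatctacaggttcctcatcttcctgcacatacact
The Igfbp6 window ends 176 bases from the nearest start in the mm9 annotation and the Igfbp5 window 19 bases from it. Each of the 3 windows has 1 E-box.

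The summed RPKM of the 6 binding proteins was 581 and 477 in α7Sca1 cells, 307 and 152 in DT SCs, and 245 and 137 in CTRL SCs. Both α7Sca1 libraries were above all SC libraries, and the SC groups overlapped. The means were 529 ± 73.9 RPKM in α7Sca1 cells, 229 ± 109 RPKM in DT SCs and 191 ± 76.4 RPKM in CTRL SCs (SD, n = 2 each). The log2 ratio of the sum was 1.29 for α7Sca1 cells against DT SCs and 1.53 against CTRL SCs (exact permutation test, two-sided, p = 0.333 each, the smallest that 2 libraries against 2 allow). It was 0.24 for DT SCs against CTRL SCs (exact p = 0.667).

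**Figure D2:**
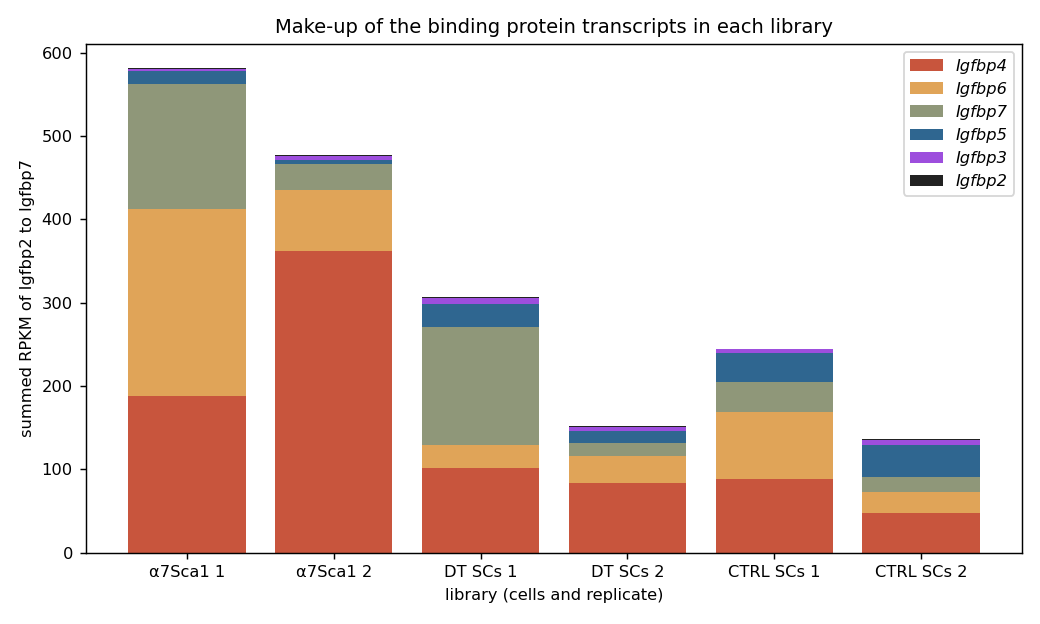
Stacked bars of the RPKM of Igfbp2 to Igfbp7 (vertical axis, from 0) in each library, with α7Sca1 cells on the left, DT SCs in the middle and CTRL SCs on the right. Igfbp4 is 75.8% of the bar in α7Sca1 replicate 2 and Igfbp7 is 46.3% of it in DT SCs replicate 1.

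The make-up of that sum differed between replicates of the same group. Igfbp4 was 32.3% and 75.8% of it in α7Sca1 cells, 33.2% and 55.2% in DT SCs, and 36.1% and 35.2% in CTRL SCs. Igfbp5 was 2.64% and 1.09% in α7Sca1 cells, 8.76% and 9.63% in DT SCs, and 14.6% and 28.4% in CTRL SCs, the only binding protein of the 4 most abundant whose share separated the 3 groups without overlap. Igfbp6 ranged over 15.4% to 38.7% in α7Sca1 cells, 9.10% to 21.0% in DT SCs, and 17.8% to 33.0% in CTRL SCs. Relative to the ligands, the sum was 42.7 and 18.6 times the summed Igf1 and Igf2 RPKM in α7Sca1 cells, 10.3 and 5.32 times in DT SCs, and 7.93 and 4.55 times in CTRL SCs. These ratios include Igfbp7, which binds the IGFs only weakly. Igfbp7 made 25.7% and 6.54% of the sum in α7Sca1 cells, 46.3% and 10.4% in DT SCs, and 14.5% and 13.4% in CTRL SCs.

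Within each group the levels, set side by side as RPKM, spanned more than 2 orders of size in α7Sca1 cells. There the order of the means was Igfbp4 (275 RPKM), Igfbp6 (149), Igfbp7 (90.3), Igf1 (16.6), Igfbp5 (10.3), Igfbp3 (4.18), Igf2r (3.01), Igf2 (3.0), Igf1r (1.28) and Igfbp2 (0.423). Neighbours in this order overlapped for Igfbp4 and Igfbp6, Igfbp6 and Igfbp7, Igf1 and Igfbp5, and Igf2r and Igf2. In DT SCs, Igf2 was the fourth with 26.8 RPKM and Igf1 the eighth with 2.37 RPKM, and in CTRL SCs Igf2 was the fifth with 24.5 RPKM and Igf1 the seventh with 5.88 RPKM. Igfbp2 was the lowest in every group.

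The comparison of SCs after MΦ depletion with their controls gave no call for the 10 genes. None of them passed limma at an adjusted p of 0.05 in DT SCs against CTRL SCs, where 0.445% of all 13934 genes did (0.352% higher and 0.0933% lower), and none of the 10 had an unadjusted p under 0.05. Libraries did not overlap for 4 of the 10, with Igf1r higher and Igf1, Igf2r and Igfbp5 lower in DT SCs, against 46.8% of all genes (21.6% higher and 25.1% lower). The median log2 fold change of the 10 was 0.18, and that of all genes was -0.01. The 95% intervals reached from -1.98 to 0.23 for Igfbp5 and from -1.57 to 3.34 for Igfbp7, so that a p that missed the threshold does not show equal levels.

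**Figure D3:**
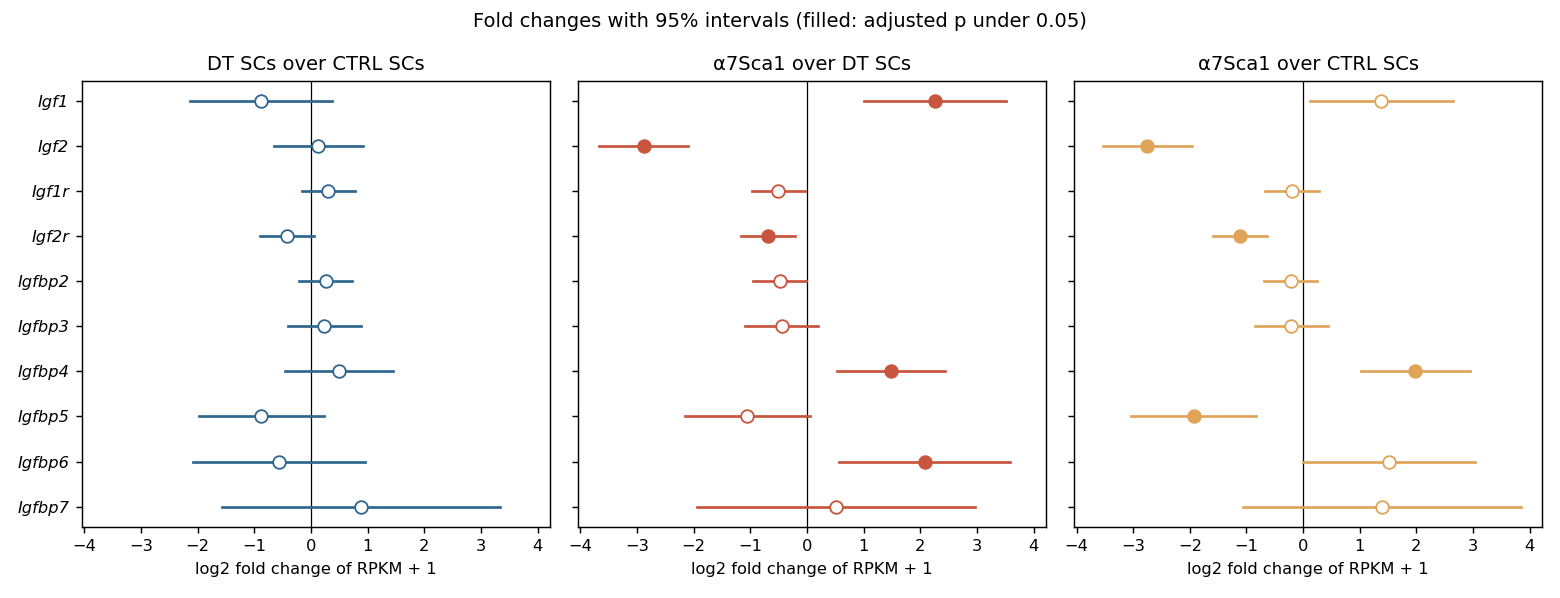
Log2 fold changes on the log2(RPKM + 1) scale (horizontal axis) with 95% intervals for the 10 genes in DT SCs over CTRL SCs, α7Sca1 cells over DT SCs and α7Sca1 cells over CTRL SCs. Filled points passed limma at an adjusted p of 0.05: none on the left, 5 in the middle and 4 on the right, with Igf2 at -2.88 and -2.75.

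In α7Sca1 cells against DT SCs, 5 of the 10 genes passed, with Igf1, Igfbp4 and Igfbp6 higher and Igf2 and Igf2r lower, where 30.3% of all genes passed (14.6% higher and 15.6% lower). Libraries did not overlap for 8 of the 10, 3 higher and 5 lower, against 67.2% of all genes (30.8% higher and 36.4% lower). Against CTRL SCs, 4 of the 10 passed, with Igfbp4 higher and Igf2, Igf2r and Igfbp5 lower, where 32.3% of all genes passed (15.1% higher and 17.3% lower). There 5 of the 10 did not overlap, 2 higher and 3 lower, against 68.1% of all genes (30% higher and 38.1% lower). The median log2 fold change of the 10 was -0.46 against DT SCs and -0.20 against CTRL SCs, and those of all genes were -0.04 and -0.06. The count of 5 against DT SCs fell to 1 without either library of DT SCs and to 2 without α7Sca1 replicate 2 or without either library of CTRL SCs, and the count of 4 fell to 1 without CTRL SCs replicate 2. The 2 comparisons share the α7Sca1 libraries, and each shares its SC libraries with the comparison of DT SCs and CTRL SCs.

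Other genes of the IGF family were measured beside the 10. For this list and those below, the shares of all genes that passed in α7Sca1 cells were 30.3% against DT SCs and 32.3% against CTRL SCs. Of 5 tested, none passed in DT SCs against CTRL SCs (median log2 fold change 0.13), and 2 were higher and 1 lower in α7Sca1 cells in each comparison, with medians of 0.60 against DT SCs and 0.33 against CTRL SCs. Igfals, the acid-labile subunit that holds Igf1 and Igfbp3 in a stable complex in blood, had 6.87 and 4.14 RPKM in α7Sca1 cells, 0.0612 and 0.171 RPKM in DT SCs, and 0.0245 and 0.0122 RPKM in CTRL SCs. Its log2 fold change was 2.51 against DT SCs (SE 0.21, adjusted p = 0.000294) and 2.64 against CTRL SCs (adjusted p = 0.000222), both by limma. All SC libraries of Igfals lay below the 0.25 RPKM filter, so it was tested and named only through its high α7Sca1 values. A difference was thus set by the selection, and these p-values add no support to it. Insr, the insulin receptor, was the other gene that was higher, with 2.18 and 4.33 RPKM in α7Sca1 cells, 1.14 and 1.12 RPKM in DT SCs, and 0.551 and 0.795 RPKM in CTRL SCs. Insr was named after its values were seen, as it lay under the 5 RPKM set for naming.

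H19, the non-coding RNA whose imprinting control region is shared with Igf2 (chr7:149761434-149764048, minus strand), had 2.69 and 1.04 RPKM in α7Sca1 cells, 11.7 and 16.2 RPKM in DT SCs, and 4.41 and 8.12 RPKM in CTRL SCs. All 3 groups were apart, with DT SCs the highest. H19 was lower in α7Sca1 cells than in DT SCs (log2 fold change -2.43, adjusted p = 0.00307) and than in CTRL SCs (-1.36, adjusted p = 0.0273) by limma. Of the 15 imprinted growth genes tested, a list that holds Igf2, Igf2r and H19 themselves, 8 were lower in α7Sca1 cells than in DT SCs and 9 lower than in CTRL SCs, none was higher, and none passed between DT SCs and CTRL SCs. The medians were -1.05, -1.11 and -0.27. Mest had 15.2 and 4.53 RPKM in α7Sca1 cells, 72.9 and 43.3 RPKM in DT SCs, and 92.8 and 95.4 RPKM in CTRL SCs. Cdkn1c, an inhibitor of the cell cycle, had 2.99 and 1.58 RPKM in α7Sca1 cells, 24.1 and 8.70 RPKM in DT SCs, and 10.5 and 13.1 RPKM in CTRL SCs. For both genes the α7Sca1 libraries were the lowest. The 15 satellite cell markers moved in the same direction, with 14 lower in α7Sca1 cells than in DT SCs and 14 lower than in CTRL SCs, as did the 19 genes of myogenic differentiation, with 18 and 15 lower. The myogenic list shares 4 genes with the imprinted list, among them Mest and Cdkn1c, and of the 15 that it does not share, 15 were lower than in DT SCs and 13 lower than in CTRL SCs. Their part in the level of Igf2 was not tested.

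**Figure D4:**
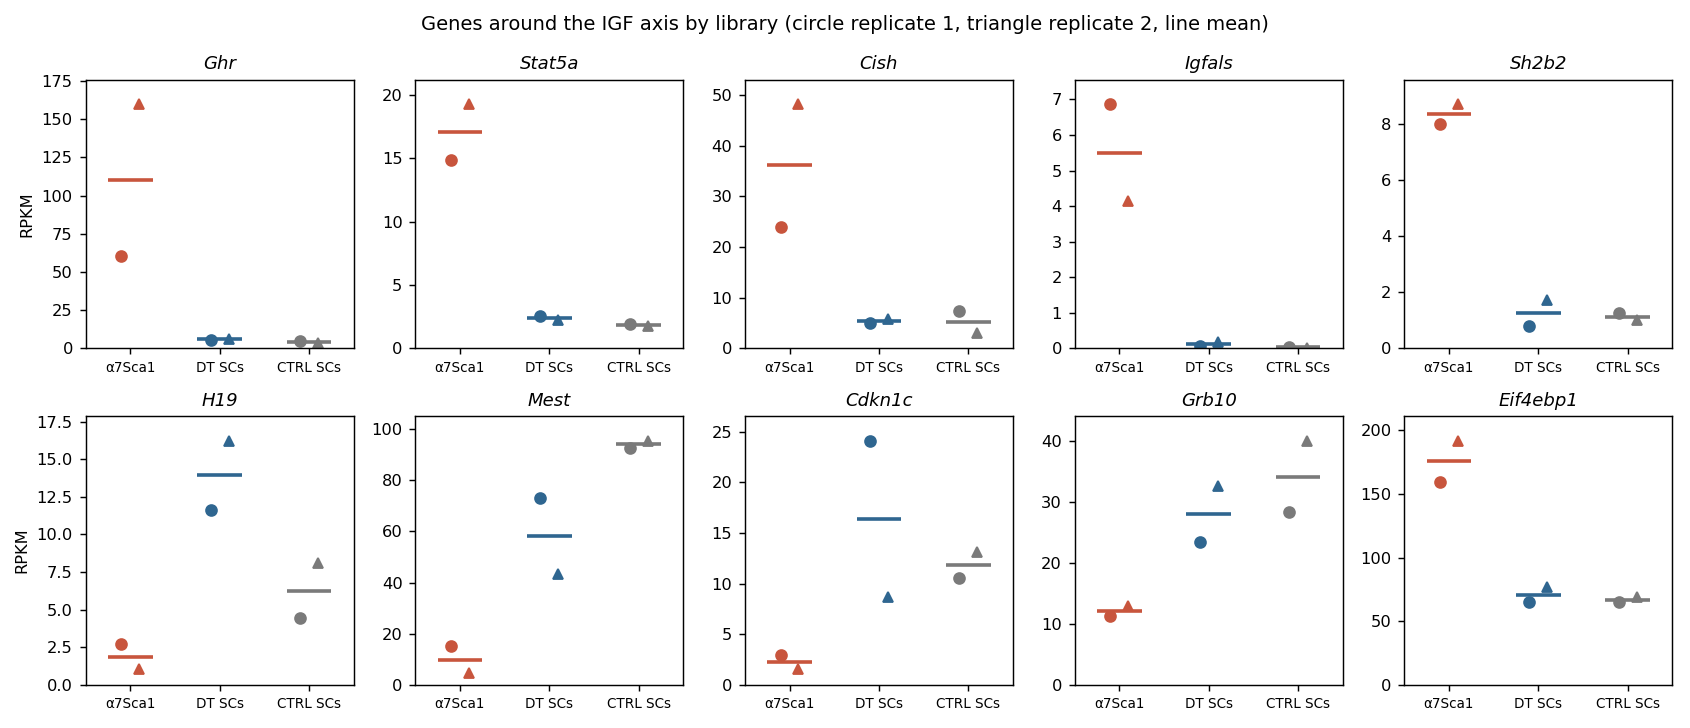
RPKM (vertical axis, from 0) of 10 genes around the IGF axis in α7Sca1 cells, DT SCs and CTRL SCs, with replicate 1 as a circle, replicate 2 as a triangle and the mean as a line. Ghr, Stat5a, Cish, Igfals, Sh2b2 and Eif4ebp1 are highest in both α7Sca1 libraries, and H19, Mest, Cdkn1c and Grb10 are lowest there.

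Growth hormone induces Igf1 through its receptor Ghr and the factors Stat5a and Stat5b. Of 11 genes of this axis, 5 were higher and 1 lower in α7Sca1 cells than in DT SCs (median log2 fold change 1.16), and 6 were higher and 2 lower than in CTRL SCs (median 0.91). None passed between DT SCs and CTRL SCs (median -0.01). Ghr had 60.4 and 160 RPKM in α7Sca1 cells, 5.52 and 5.99 RPKM in DT SCs, and 4.74 and 3.25 RPKM in CTRL SCs, without overlap of α7Sca1 cells and SCs. Its log2 fold change was 3.88 against DT SCs (adjusted p = 0.000842) and 4.33 against CTRL SCs (adjusted p = 0.000522) by limma. Stat5a had 14.8 and 19.3 RPKM in α7Sca1 cells, 2.51 and 2.21 RPKM in DT SCs, and 1.94 and 1.74 RPKM in CTRL SCs. Cish, an inhibitor that Stat5 induces, had 24.0 and 48.3 RPKM in α7Sca1 cells, 4.90 and 5.81 RPKM in DT SCs, and 7.43 and 3.06 RPKM in CTRL SCs. Both passed in both comparisons, while the adaptor Sh2b1 was lower in α7Sca1 cells than in DT SCs (-0.94, adjusted p = 0.00815 by limma). Socs2, another gene of this axis, overlapped between all groups, with 7.07 and 14.8 RPKM in α7Sca1 cells, 8.58 and 11.1 RPKM in DT SCs, and 11.6 and 9.96 RPKM in CTRL SCs. All 18 adipocyte markers were higher in α7Sca1 cells in both comparisons, and their part in these levels was not tested.

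Downstream of Igf1r, 43 signalling genes were tested. Against DT SCs, 4 were higher and 4 lower in α7Sca1 cells (median log2 fold change -0.09), where 30.3% of all genes passed. Against CTRL SCs 5 were higher and 3 lower (median -0.01), where 32.3% of all genes passed. None of the 43 passed between DT SCs and CTRL SCs (median 0.06). Sh2b2, an adaptor of the insulin receptor, had 8.03 and 8.73 RPKM in α7Sca1 cells, 0.795 and 1.73 RPKM in DT SCs, and 1.25 and 1.01 RPKM in CTRL SCs. Grb10, an imprinted inhibitor of the IGF and insulin receptors, had 11.3 and 12.9 RPKM in α7Sca1 cells, 23.5 and 32.6 RPKM in DT SCs, and 28.3 and 40.1 RPKM in CTRL SCs. Sh2b2 was higher and Grb10 lower in α7Sca1 cells than in either SC group (limma, adjusted p 0.000903 and 0.0177 against DT SCs). Eif4ebp1, a repressor of translation that mTOR inactivates, had 159 and 192 RPKM in α7Sca1 cells, 64.9 and 77.0 RPKM in DT SCs, and 64.9 and 68.7 RPKM in CTRL SCs. Trib3, an inhibitor of Akt, was higher in α7Sca1 cells by 1.95 than in DT SCs (adjusted p = 0.0148 by limma) and by 1.67 than in CTRL SCs (adjusted p = 0.0242).

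Of 15 proteases that cleave IGF binding proteins and their inhibitors, none passed between DT SCs and CTRL SCs (median log2 fold change 0.23). C1ra was the only one that was higher in α7Sca1 cells than in DT SCs (1.67, adjusted p = 0.0124 by limma), and C1ra (2.17) and Adam9 (0.68, adjusted p = 0.0433) were higher than in CTRL SCs, with medians of the list of 0.04 and 0.12. C1ra, a complement protease, had 16.9 and 20.4 RPKM in α7Sca1 cells, 4.45 and 5.91 RPKM in DT SCs, and 5.35 and 1.96 RPKM in CTRL SCs, and it has a near-identical copy with which it may share reads. Pappa, the protease of Igfbp4, stayed at 0.952 RPKM or below in all libraries. Of 20 genes of mannose 6-phosphate sorting, the other task of Igf2r, 3 were higher and 1 lower in α7Sca1 cells than in DT SCs (median 0.25), 1 was higher and 1 lower than in CTRL SCs (median 0.17), and none passed between DT SCs and CTRL SCs (median -0.06). The lysosomal enzyme Gaa had 21.0 and 21.1 RPKM in α7Sca1 cells, 6.41 and 6.89 RPKM in DT SCs, and 13.4 and 6.80 RPKM in CTRL SCs, and it was higher in both comparisons. Ctsb, a lysosomal protease, was higher in α7Sca1 cells than in DT SCs (1.08, adjusted p = 0.0385), and Plaur, the urokinase receptor, was lower than in DT SCs (-1.19, adjusted p = 0.0228) and than in CTRL SCs (-1.16, adjusted p = 0.0239), all by limma.

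**Figure D5:**
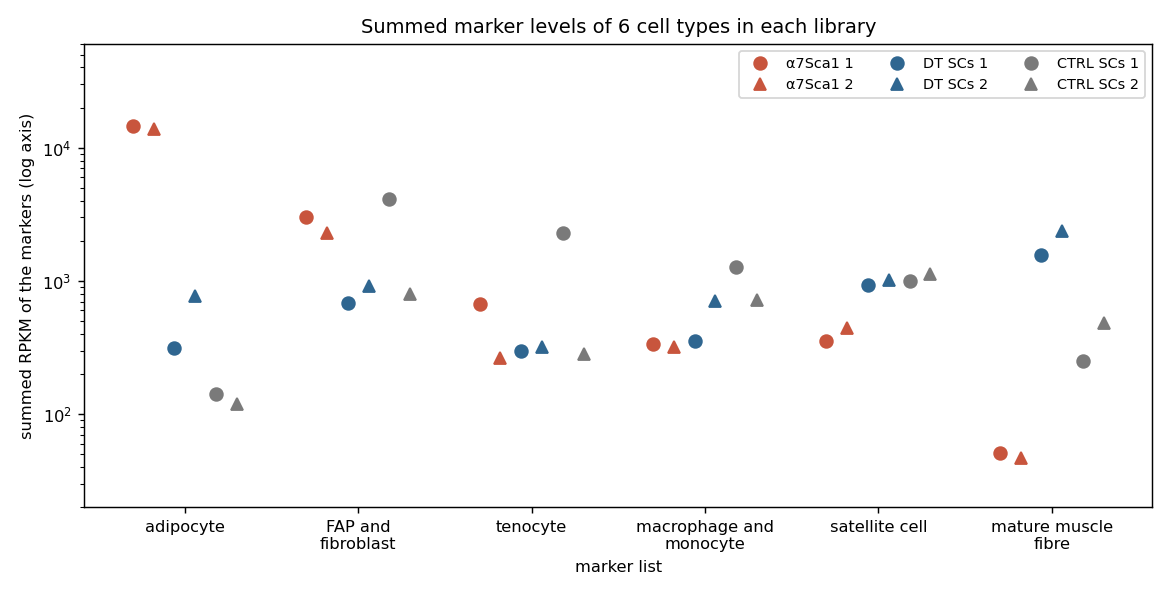
Summed RPKM of the markers of 6 cell types (vertical log axis) in each library, with α7Sca1 cells, DT SCs and CTRL SCs set from left to right within a list. CTRL SCs replicate 1 has the highest FAP and fibroblast (4135), tenocyte (2275) and MΦ (1268) sums of the 6 libraries. Col1a1 alone makes 2287 of the 4135.

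Markers of other cells moved with the groups beside the IGF genes. Of 20 FAP and fibroblast markers 5 were higher and none lower in α7Sca1 cells in each comparison, and their sum was 2998 and 2284 RPKM in α7Sca1 cells, 684 and 909 RPKM in DT SCs, and 4135 and 798 RPKM in CTRL SCs. The median of this list was 50.9 and 22.7 RPKM in α7Sca1 cells, 15.3 and 18.8 RPKM in DT SCs, and 30.3 and 14.0 RPKM in CTRL SCs. Of 19 MΦ and monocyte markers, 7 were lower and 1 higher in α7Sca1 cells than in DT SCs, 14 were lower than in CTRL SCs, and 1 was lower in DT SCs than in CTRL SCs. Of 13 muscle fibre genes, 9 were higher in DT SCs than in CTRL SCs, and 13 were lower in α7Sca1 cells than in DT SCs and 11 than in CTRL SCs. Of 13 pericyte and smooth muscle markers, 9 were lower in α7Sca1 cells than in DT SCs, and 6 were lower and 1 higher than in CTRL SCs. Their part in the levels of the IGF genes was not tested.

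Genes whose pattern over the 6 libraries was most like that of a member were found by the distance between centred log2(RPKM + 1) values, as a description over 6 libraries that share their groups. For Igf2 these were Serinc2 (distance 0.27), at 3.47 and 1.19 RPKM in α7Sca1 cells, 23.6 and 21.8 RPKM in DT SCs, and 22.4 and 25.3 RPKM in CTRL SCs, and Flnc, a filamin of muscle (distance 0.36). For Igf1 they were Emb (0.50) and Rin2 (0.75), and Emb had 20.7 and 39.1 RPKM in α7Sca1 cells, 4.89 and 6.78 RPKM in DT SCs, and 13.3 and 5.97 RPKM in CTRL SCs, with the same high CTRL SCs replicate 1. The nearest genes were Chaf1b (0.07) and Rps19 (0.18) for Igf2r, Traf3ip2 (0.56) and Tap1 (0.57) for Igfbp4, Ltbp4 (0.54) and Pea15a (0.58) for Igfbp5, and Crabp2 (0.68) and Myoc (0.74) for Igfbp6. The distances of Igf1 and of the binding proteins were larger than those of Igf2 and Igf2r. Values were centred but not scaled, so a distance also depends on how much a gene varies, and members cannot be ranked by it.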

How the data were processed

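RNA-Seq was measured in 6 libraries, with groups and replicate numbers as the sample titles give them. RNA (5 ng) was amplified by SMART-seq2, read as 50 bp single ends and aligned to mm9 by the authors with TopHat (the submitters' processing notes name TopHat2 2.0.8). The deposited values are RPKM, computed by the authors, and when sorted they differ between libraries by no more than 0.0192 RPKM, so they had been brought to the same distribution, in which a general shift of a group cannot be seen. A further deposited table holds the authors' own log2 fold changes and p-values and 10 columns of values per sample; none was used. RPKM were tested as log2(RPKM + 1), which understates the change of low genes, with limma 3.58.1 (R 4.3.3) with a variance trend, in a single fit over the 6 libraries without a replicate block. The 13934 genes with a maximum above 0.25 RPKM were tested, p-values were adjusted by Benjamini-Hochberg over all of them, and the threshold was 0.05. The fit has 3 residual and 4.29 prior degrees of freedom, and was tested on simulated data. No intervals from read counts could be given. Coordinates are from GENCODE on NCBIM37 (mm9). Python 3.11.15, pandas 2.3.3, numpy 2.4.6 and matplotlib 3.10.9 served for the rest.

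The genes and all lists were chosen with earlier results of these data known. Every member was named, and for each pathway list up to 4 genes that passed, with the largest fold change and, in the higher group, a mean of 5 RPKM or more. For each member that passed, the 2 nearest genes were named. A gene of the mannose 6-phosphate list that this rule selects is not reported here. Of cell type lists not described above, α7Sca1 cells had, against DT SCs, 8 lower and 1 higher of 11 Schwann and glial, 2 lower and 2 higher of 6 mesothelial, 3 lower and 1 higher of 12 endothelial, 2 lower of 10 tenocyte and 2 lower and 1 higher of 8 neutrophil markers. Against CTRL SCs they had 6 lower Schwann and glial, 2 lower and 2 higher mesothelial, 2 lower and 1 higher endothelial, 4 lower tenocyte and 3 higher neutrophil markers. In both comparisons the lower tenocyte markers included Chodl, which is also on the satellite cell list. The higher endothelial marker was Ly6c1 in both, which is also on the FAP list. In DT SCs against CTRL SCs, 1 neutrophil, 2 adipocyte and 1 myogenic differentiation gene were higher, 1 satellite cell gene was lower, and no gene of the FAP, endothelial, pericyte, Schwann, tenocyte and mesothelial lists passed. Alternatives were pseudocounts of 0.1 and 0.5 RPKM, no filter or a filter of 1 RPKM, median ratio rescaling, quantile normalization, a fit on the compared groups alone, a replicate block, no variance trend and the omission of each library.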

Additional observations from a re-analysis of the deposited data

How the results depend on the processing

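The direction of all calls on the 10 genes was kept under every alternative, and Igf2 alone kept both calls under all. Direction could change only with the pseudocounts, the rescaling and the omission of a library of the compared groups. The other alternatives leave a fold change as it is, and quantile normalization nearly so, since the values already had the same distribution. Under these, only the side of the threshold could change. Of 460 values of single genes under an alternative, 414 kept their direction and side of the threshold, 34 lost a call, 3 gained one and 9 changed sign, none of the 9 with a call on either side. The sign changes came with single libraries left out, over which the values ranged, in DT SCs against CTRL SCs, from -0.025 to 0.28 for Igf2, -0.052 to 0.53 for Igfbp3, -1.41 to 0.29 for Igfbp6 (the negative bounds of the first pair and the positive bound of Igfbp6 without CTRL SCs replicate 1) and -0.66 to 2.43 for Igfbp7 (-0.66 without DT SCs replicate 1). In α7Sca1 cells against DT SCs, Igfbp7 ranged from -1.04 to 2.06 (-1.04 without DT SCs replicate 2, -0.60 without α7Sca1 replicate 1). In α7Sca1 cells against CTRL SCs, Igf1r ranged from -0.40 to 0.0095 and Igfbp3 from -0.50 to 0.082, both positive without α7Sca1 replicate 1 and Igfbp3 also without CTRL SCs replicate 2. The cause was not tested. Of the 10 genes in α7Sca1 cells against DT SCs, 5 passed, but 1 with no filter, 2 with the compared groups fitted alone, and 1 to 4 with a library left out; against CTRL SCs 4 passed, and 1 to 5 with a library left out. No member passed in DT SCs against CTRL SCs under any alternative. Over all genes, 62 passed in that comparison, but 4 with no filter, 1 with the compared groups alone, 35 with no variance trend and 0 to 24 with a library left out (0 without DT SCs replicate 2 or CTRL SCs replicate 1, 1 without either α7Sca1 library). Of 4216 calls in α7Sca1 cells against DT SCs, 1590 to 4391 were counted with a library left out, and of 4506 against CTRL SCs, 1741 to 4690. A lone library left in a group is assumed to vary like the others, and such fits have fewer degrees of freedom.

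The sources do not say whether same-numbered libraries share mice. With the replicate block 92, 4336 and 4636 genes passed in DT SCs against CTRL SCs, α7Sca1 cells against DT SCs and α7Sca1 cells against CTRL SCs, and 0, 5 and 5 of the 10, the added call being Igfbp6 in the last. Deviations of same-numbered libraries correlated at 0.255 (α7Sca1 cells and DT SCs), 0.163 (α7Sca1 cells and CTRL SCs) and -0.131 (DT SCs and CTRL SCs) over 13934 genes. With the CTRL SCs numbers crossed, an alternative chosen after seeing the data, 68 genes and 0 of the 10 passed in DT SCs against CTRL SCs. The log2 ratio of the summed binding proteins ranged over -0.27 to 0.75 for DT SCs against CTRL SCs with a library left out, 0.78 to 1.79 for α7Sca1 cells against DT SCs and 1.11 to 1.95 against CTRL SCs. The standard errors on this scale were smallest for Igfbp2 and Igf1r (0.20 each) and largest for Igfbp7 (1.05).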

Other observations

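The high values of Igfbp7 in replicate 1 of both groups from DT-injected mice were looked for in other genes, after they had been seen. Of 5618 tested genes with a maximum of at least 5 RPKM, 2 had a replicate 1 at least 4-fold above replicate 2 in α7Sca1 cells and in DT SCs, on the RPKM + 1 scale, and none had the reverse. They were Igfbp7 and Lamp1, a protein of the lysosomal membrane. Lamp1 had 53.4 and 11.1 RPKM in α7Sca1 cells, 49.5 and 8.95 RPKM in DT SCs, and 15.1 and 11.0 RPKM in CTRL SCs. The labels name nothing that the replicates numbered 1 share.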
